A study of Mus musculus with 6 samples.

Results

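The transcripts described here encode the transforming growth factor beta (TGF-beta) and bone morphogenetic protein (BMP) pathway, from the secreted ligands through their receptors to the Smad proteins and the secreted antagonists. They were taken as the 42 listed genes found by name among the 36163 gene names on the arrays, and each gene was read from the 1 probe with the highest mean signal over the 6 arrays. The list names genes by their place in the pathway, and it was put together with earlier results of these data known. RNA came from the cardiac muscle of male C57BL/6 mice, 3 of them sham and 3 tail-suspended for 28 days. Tail-suspension lifts the hindlimbs off the floor by the tail and serves as a model of weightlessness on the ground. The sham mice shared the feeding and the space of the tail-suspended mice without being lifted, and the labels name no transgene or drug for any mouse. The labels put the mice at 10 weeks of age when suspension began and at 11 weeks as samples, although suspension lasted 28 days, so the age at sampling was not settled.

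Signals were 1-colour Agilent processed intensities. A level below is this intensity divided by the 75th percentile of the intensities of its own array, which lay between 302 and 376, and a difference is the log2 level in tail-suspended hearts minus that in sham hearts. The share of probes that the scanner software flagged as well above background was 50.9% to 53.4% per array, such probes are called detected below, and no spot was saturated. Arrays of 1 group correlated at 0.991 to 0.996 and arrays of different groups at 0.978 to 0.984 across probes. All 7 markers of cardiomyocytes were detected on all 6 arrays, so the hearts held the labelled tissue, and Actc1 was the 1 marker of these to pass the test, with a difference of -0.33 that lost its call without any 1 of the 6 arrays (adjusted p up to 0.119). S100a8 and S100a9, which mark neutrophils, rose to a summed neutrophil marker level of 7.85 to 49.6 in tail-suspended hearts from 0.684 to 1.07 in sham hearts. No erythroid marker passed, but the 4 tested had a median difference of -1.52 and 3 of them had groups that did not overlap, and the summed erythroid marker level was 428 to 689 in sham and 106 to 344 in tail-suspended hearts. The part of either cell type in the differences below was not tested. All arrays lay on 1 slide, with the sham arrays and tail-suspension replicate 1 in the same row and tail-suspension replicates 2 and 3 in another.

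Ligands of the TGF-beta family bind pairs of type I and type II serine/threonine kinase receptors. TGF-beta and activin receptors phosphorylate Smad2 and Smad3, BMP receptors phosphorylate Smad1, Smad5 and Smad9, and both groups enter the nucleus with Smad4. TGF-beta leaves the cell bound in a latent complex that latent TGF-beta binding proteins anchor to the matrix, while noggin, gremlin, chordin-like proteins and follistatins capture BMPs and activins outside the cell. In the heart this pathway is known for its part in fibrosis, valve and vessel formation and the growth of cardiomyocytes.

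In tail-suspended hearts, 6 of these genes rose and 5 fell. The follistatin-like gene Fstl3, the inhibitory Smads Smad6 and Smad7, the receptors Tgfbr2 and Tgfbr3 and the ligand Bmp4 were higher. The latent TGF-beta binding proteins Ltbp4 and Ltbp1, the BMP receptor Bmpr1a and the signal-carrying Smads Smad2 and Smad3 were lower. Among the 42 genes, 38 were detected in all hearts of the sham or the tail-suspended group and were tested with limma, and Bmp5, Bmp10, Grem1 and Chrdl1 were detected on none of the 6 arrays. The 11 genes with an adjusted p under 0.05 (limma, adjusted by Benjamini-Hochberg over 28032 probes) were 28.9% of the 38, against 20.3% of all 20668 genes tested in the same way. In the upward direction 15.8% of the 38 passed against 10.5% of all genes, and in the downward direction 13.2% against 9.8%. The levels of both groups did not overlap for 18 of the 38 genes, or 47.4%, close to the 44.8% among all genes. Of these 18, the tail-suspended hearts lay above for 7 and below for 11, where 22.1% and 22.7% of all genes did so. The median difference was 0.07 over the 38 genes and -0.01 over all genes, and the median size of the difference was 0.34 against 0.23. Fstl3 was the 1 gene that passed with a change of at least 2-fold. A permutation test of 3 arrays against 3 cannot give a two-sided p below 0.1, so the calls rest on the spread that limma pools across probes.

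**Figure D1:**
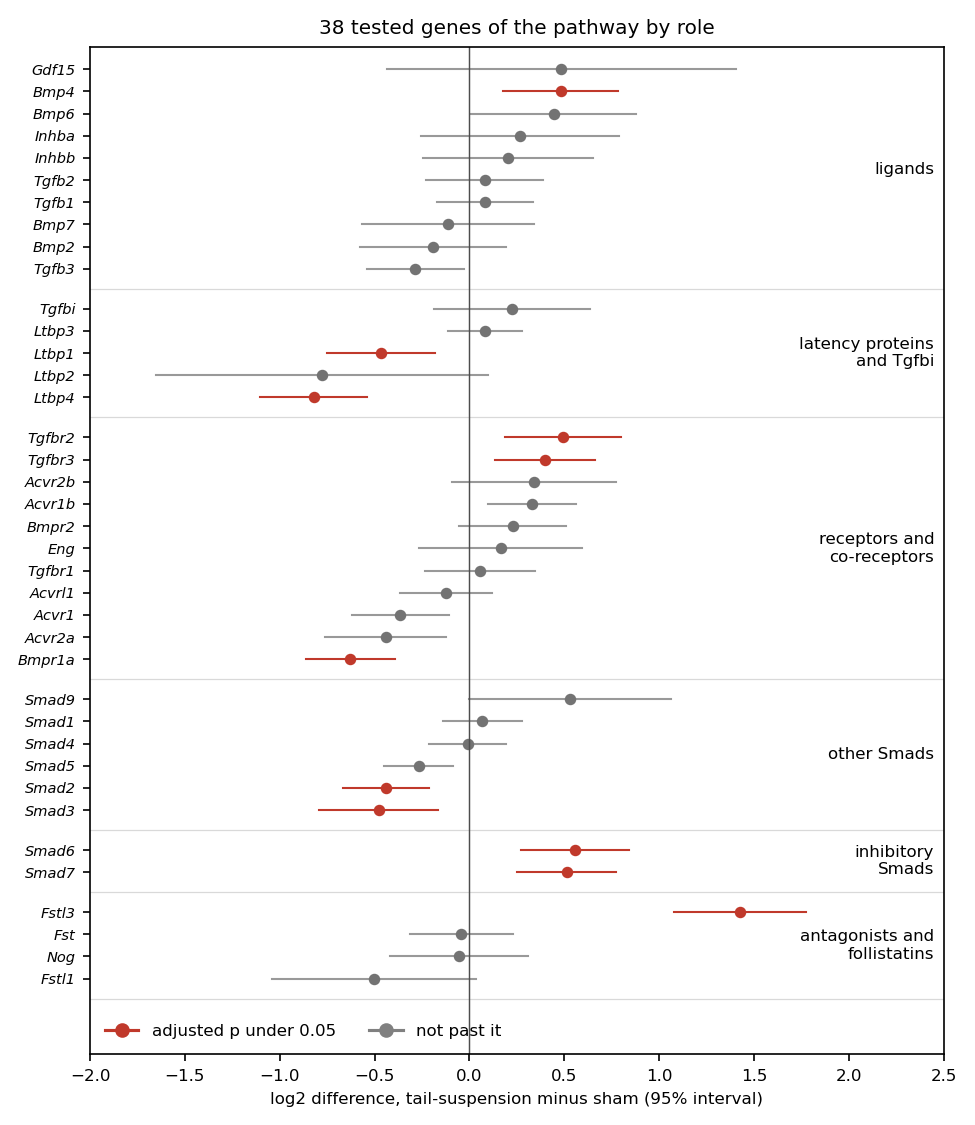
Difference in log2 level, tail-suspension minus sham, of the 38 tested genes by role, with points at the limma estimate and bars over its 95% interval (3 arrays per group). Red points passed an adjusted p of 0.05. Fstl3 lies alone at 1.42, both inhibitory Smads lie to the right of 0, and Ltbp4 is the lowest gene at -0.82.

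Fstl3 encodes a secreted glycoprotein that binds activins and related ligands and keeps them from their receptors. Its level was 0.857, 0.867 and 0.854 in the sham hearts and 2.41, 1.87 and 2.73 in the tail-suspended hearts. All 3 tail-suspended hearts lay above all 3 sham hearts, which were nearly equal. The difference was 1.42 on the log2 scale (SE 0.15, adjusted p = 0.00321 by limma), a 2.68-fold rise, and 305 of the 20668 genes, Fstl3 included, had a difference at least as high. The other antagonists with a signal did not pass. Fst, which encodes follistatin itself, had a difference of -0.04 with a 95% interval from -0.31 to 0.23. Nog, which encodes the BMP antagonist noggin, had a difference of -0.05 with an interval from -0.42 to 0.31. Fstl1, a secreted glycoprotein of the heart that shares the follistatin domain, lay lower in every tail-suspended heart than in every sham heart, at 9.14, 5.68 and 9.96 against 10.1, 11.2 and 13.0, but its difference of -0.50 did not pass (adjusted p = 0.151, limma). Grem1 and Chrdl1, both BMP antagonists, were not detected.

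The DNA just before the start site is shown for Fstl3 and Smad6, the antagonist and the inhibitory Smad with the largest rises, and for Bmpr1a, the receptor with the largest fall. These are 250 bases each from RefSeq on GRCm38.p6, written 5′ to 3′ on the strand of the gene, at chr10:79777024-79777273 (plus strand) for Fstl3, chr9:64022060-64022309 (minus strand) for Smad6 and chr14:34502547-34502796 (minus strand) for Bmpr1a. Capitals mark CAGAC, read as GTCTG on the other strand and known as a motif bound by Smad3 and Smad4, and GGCGCC, a GC-rich motif bound by the BMP Smads that reads the same on both strands and shares no letters with a CAGAC in these windows.
Fstl3: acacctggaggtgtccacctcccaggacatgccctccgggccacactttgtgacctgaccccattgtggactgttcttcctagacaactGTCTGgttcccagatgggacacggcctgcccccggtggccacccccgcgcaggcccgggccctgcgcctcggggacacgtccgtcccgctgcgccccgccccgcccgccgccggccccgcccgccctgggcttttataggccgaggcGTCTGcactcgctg
Smad6: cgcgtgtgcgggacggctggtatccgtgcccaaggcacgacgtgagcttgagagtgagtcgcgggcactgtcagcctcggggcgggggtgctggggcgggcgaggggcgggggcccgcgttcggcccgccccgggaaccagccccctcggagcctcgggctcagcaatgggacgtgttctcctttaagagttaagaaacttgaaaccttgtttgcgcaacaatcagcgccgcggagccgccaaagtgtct
Bmpr1a: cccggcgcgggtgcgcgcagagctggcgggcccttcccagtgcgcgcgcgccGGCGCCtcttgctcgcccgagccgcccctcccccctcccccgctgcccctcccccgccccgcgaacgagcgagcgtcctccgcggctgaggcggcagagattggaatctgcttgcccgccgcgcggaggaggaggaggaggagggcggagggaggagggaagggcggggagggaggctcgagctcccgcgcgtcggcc
Fstl3 held 2 matches to CAGAC on the other strand, 161 and 14 bases before the start, Bmpr1a held 1 GGCGCC 198 bases before the start, and the Smad6 window held these letters nowhere. CAGAC was found in 42.2% and GGCGCC in 9.59% of the 32851 windows of the same length, and in 18 and 9 of the 38 windows that the table held for 31 of the 42 genes. A match is a description of the letters and was not tested as a binding site.

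Smad6 and Smad7 are the inhibitory Smads, which block receptors and the other Smads and are themselves induced by the pathway. Smad6 stood at 0.950, 0.918 and 0.948 in sham hearts and at 1.56, 1.18 and 1.43 in tail-suspended hearts. Smad7 stood at 0.717, 0.722 and 0.815 in sham hearts and at 0.984, 1.04 and 1.20 in tail-suspended hearts. Neither gene had a sham heart as high as its lowest tail-suspended heart. Smad6 rose by 0.56 (SE 0.12, adjusted p = 0.0246) and Smad7 by 0.51 (SE 0.11, adjusted p = 0.0246) in limma, which is 1.47-fold and 1.43-fold. Both inhibitory Smads on the array thus passed in the same direction, a list of only 2 genes, where 10.5% of all genes rose. Leaving out any array but tail-suspension replicate 2 moved the adjusted p of Smad6 to between 0.0547 and 0.0879, and leaving out sham replicate 1, sham replicate 2 or tail-suspension replicate 3 moved that of Smad7 to between 0.0738 and 0.0905.

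**Figure D2:**
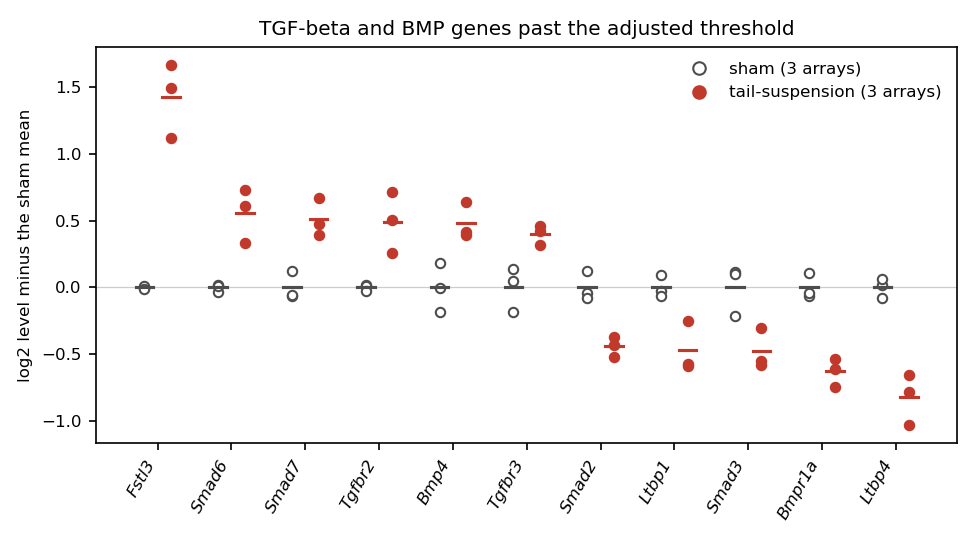
Log2 level of each array minus the sham mean of that gene for the 11 genes past an adjusted p of 0.05, with open points for the 3 sham arrays, red points for the 3 tail-suspension arrays and short lines at the group means. The groups overlap for none of these genes. The tail-suspended hearts spread more than the sham hearts for Fstl3, Smad6, Tgfbr2, Smad7, Ltbp1, Ltbp4 and Bmpr1a, and less for Bmp4, Tgfbr3, Smad2 and Smad3.

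Among the 6 Smads that carry the signal, Smad2 and Smad3 fell and none rose. The share that fell was 33.3% of this short list, against 9.8% of all genes. Smad2, which TGF-beta and activin receptors phosphorylate, had levels of 0.892, 0.999 and 0.870 in sham hearts and 0.710, 0.641 and 0.680 in tail-suspended hearts. Smad3, its partner that binds DNA directly, had levels of 4.27, 4.24 and 3.39 in sham hearts and 3.20, 2.69 and 2.64 in tail-suspended hearts. The groups did not overlap for either gene, with sham replicate 3 closest to the tail-suspended hearts for Smad3. The difference was -0.44 for Smad2 (SE 0.09, adjusted p = 0.0248, limma) and -0.48 for Smad3 (SE 0.13, adjusted p = 0.0472, limma). A dimmer Smad3 probe was detected on 3 sham arrays and on none of the tail-suspension arrays, and its level was at least 1.33-fold lower after tail-suspension. This probe entered the test through the sham group alone, so it is given as a bound with no test. The Smad2 call was lost without sham replicate 1 or 2 or tail-suspension replicate 1 or 3 (adjusted p of 0.0529 to 0.0893), and the Smad3 call without any array other than sham replicate 3 (0.0567 to 0.148).

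The BMP Smads did not pass. Smad5 lay at 11.7, 11.8 and 11.9 in sham hearts and at 9.77, 9.56 and 10.0 in tail-suspended hearts. Those groups stood clear of each other, and the difference was -0.27 (adjusted p = 0.0521, limma). Smad1 had a difference of 0.07 by its brightest probe and of -0.49 by its second probe (adjusted p = 0.0992), so its probes disagreed in sign. Smad9 had a difference of 0.53 (adjusted p = 0.134) at a level between 0.0787 and 0.178. Smad4, the common partner of both branches, had levels of 9.42 to 10.2 in sham hearts and 9.33 to 10.2 in tail-suspended hearts. Its difference was -0.01 with a 95% interval from -0.21 to 0.19 and its second probe gave -0.01 as well.

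Of the 11 receptors and co-receptors, Tgfbr2 and Tgfbr3 rose and Bmpr1a fell. These are 18.2% higher and 9.09% lower on a short list, against 10.5% and 9.8% of all genes. Bmpr1a encodes the type I BMP receptor ALK3. Its level was 4.10, 4.62 and 4.19 in sham hearts and 2.97, 2.82 and 2.56 in tail-suspended hearts. Every tail-suspended heart lay below every sham heart, and the difference was -0.63 (SE 0.10, adjusted p = 0.0104, limma), or 1.55-fold lower. Tgfbr2, the type II receptor that binds TGF-beta first, had levels of 10.4, 10.3 and 10.0 in sham hearts and 14.5, 12.2 and 16.8 in tail-suspended hearts. The sham hearts were nearly equal and the tail-suspended hearts spread widely above them, with a difference of 0.49 (SE 0.13, adjusted p = 0.0398, limma). A second Tgfbr2 probe rose by 0.43 (adjusted p = 0.0412, limma). Tgfbr3 encodes betaglycan, the co-receptor that presents TGF-beta to the type II receptor. Its level was 5.64, 4.52 and 5.30 in sham hearts and 6.87, 6.40 and 7.07 in tail-suspended hearts. No sham heart reached the tail-suspended range, and the difference was 0.40 (SE 0.11, adjusted p = 0.0471, limma). Tgfbr2 lost its call without any array other than tail-suspension replicate 2 (adjusted p of 0.0861 to 0.116) and Tgfbr3 without any of the 6 arrays in turn (0.0564 to 0.134), whereas Bmpr1a kept its call with each array left out (0.0186 to 0.0464).

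The other 8 receptors and co-receptors had differences between -0.44 and 0.34. Tgfbr1, the type I receptor that partners Tgfbr2, had a difference of 0.06 with a 95% interval from -0.23 to 0.35. Bmpr2, the type II BMP receptor, had a difference of 0.23 with an interval from -0.05 to 0.51. For the receptors shared with activin, Acvr1 at -0.36, Acvr2a at -0.44 and Acvr1b at 0.33 had groups that did not overlap and adjusted p values of 0.0561, 0.0607 and 0.0582 (limma). A second, dimmer Acvr2a probe had a difference of -0.02 with overlapping groups (adjusted p = 0.916). Acvr2b, a type II receptor for activin and myostatin, had a difference of 0.34 with overlapping groups (adjusted p = 0.214). The differences of Acvrl1 and Eng, the receptor and co-receptor of endothelial BMP signalling, were -0.12 and 0.17, and neither passed (adjusted p of 0.417 and 0.534). Endothelial marker genes fell in the same hearts, with 5 of 8 lower and none higher (Kdr, Tie1, Egfl7, Emcn and Cldn5). These are 62.5% of a short list, against 9.8% of all genes. The median difference of the 8 was -0.37, and their summed levels were 163 to 174 in sham and 124 to 138 in tail-suspended hearts. All 8 endothelial markers were detected on all 6 arrays, so none was at 0. Kdr lost its call only without sham replicate 1 or sham replicate 2 (adjusted p up to 0.0637, limma). Tie1, Emcn and Cldn5 each lost theirs in 5 of the 6 leave-outs (up to 0.130, 0.121 and 0.0869), and Egfl7 lost its call in all 6 (up to 0.145). In these whole-tissue samples fewer cells of a type and less RNA per cell cannot be told apart, and the part of endothelial cells in the differences of Bmpr1a or any other receptor was not tested.

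Of the 4 latent TGF-beta binding proteins, Ltbp4 and Ltbp1 fell and none rose. With Tgfbi they form a list of 5 genes, of which 40% fell, against 9.8% of all genes. Ltbp4, a latent TGF-beta binding protein of elastic fibres, had levels of 94.5, 88.5 and 97.7 in sham hearts and 54.3, 59.5 and 45.8 in tail-suspended hearts. The groups stood far apart, and the difference was -0.82 (SE 0.12, adjusted p = 0.00813, limma), or 1.77-fold lower. Its other probes, dimmer than the first, gave -0.83 and -0.55 and passed as well (adjusted p of 0.00526 and 0.0473, limma). Ltbp1, which anchors latent TGF-beta to fibrillin and fibronectin, had levels of 2.77, 2.70 and 3.01 in sham hearts and 1.88, 1.90 and 2.37 in tail-suspended hearts. Tail-suspension replicate 3 was closest to the sham hearts and still below them, and the difference was -0.47 (SE 0.12, adjusted p = 0.0381, limma). Without any array other than tail-suspension replicate 3 the adjusted p of Ltbp1 lay between 0.0743 and 0.104, while Ltbp4 kept its call with each array left out (0.00825 to 0.0337). Ltbp2, a family member that does not bind latent TGF-beta, ranged from 0.661 to 0.993 in sham hearts and from 0.253 to 0.667 in tail-suspended hearts, and its difference of -0.78 did not pass (adjusted p = 0.169). Ltbp3 gave 0.08 and -0.01 by its probes and did not pass. Tgfbi, an adhesive matrix protein induced by TGF-beta, had a difference of 0.22 with a 95% interval from -0.19 to 0.64.

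Of the 12 ligands, 10 had a signal and Bmp4 alone passed. That is 10% of the 10, near the 10.5% of all genes that rose and below the 20.3% that passed in either direction. Bmp4 acts in heart development and in cardiac hypertrophy. Its level was 3.03, 2.35 and 2.66 in sham hearts and 4.15, 3.56 and 3.49 in tail-suspended hearts. The lowest tail-suspended heart lay above the highest sham heart, and the difference was 0.48 (SE 0.13, adjusted p = 0.0419, limma), or 1.40-fold. A second Bmp4 probe was detected on no array, and the call was lost with each of the 6 arrays left out in turn (adjusted p of 0.0526 to 0.129).

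The TGF-beta ligands themselves had small differences. Tgfb1, with levels of 1.43, 1.17 and 1.41 in sham hearts and 1.36, 1.45 and 1.41 in tail-suspended hearts, had a difference of 0.08 with a 95% interval from -0.17 to 0.33. Tgfb2 also had a difference of 0.08, with an interval from -0.23 to 0.39. Tgfb3 lay at 5.27 to 5.98 in sham and at 4.12 to 4.90 in tail-suspended hearts, groups that did not overlap, with a difference of -0.29 (adjusted p = 0.102). Among the other ligands, Bmp6 at 0.44 (adjusted p = 0.125), Bmp2 at -0.19, Bmp7 at -0.11 and the activin subunits Inhba at 0.27 and Inhbb at 0.20 did not pass. Gdf15, a stress-induced member of the family, had levels of 0.320, 0.394 and 0.327 in sham hearts and 0.819, 0.262 and 0.525 in tail-suspended hearts. Tail-suspension replicate 2 lay below every sham heart and the other tail-suspended hearts above them, and the difference of 0.48 did not pass (adjusted p = 0.396, limma). Without that replicate the difference was 0.92 (adjusted p = 0.0350, limma), the 1 of 16 alternatives in which Gdf15 passed. Leaving out the lowest tail-suspended heart raises the difference by construction, so this is no test of a rise. Bmp5 and Bmp10, a cardiac ligand of the atria in adult hearts, were not detected.

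The position on the slide differed between the groups. For all 11 genes tail-suspension replicate 1, the 1 tail-suspended heart in the row of the sham arrays, lay on the same side of the sham mean as the other tail-suspended hearts, by 1.49 for Fstl3, 0.73 for Smad6, 0.39 for Smad7, -0.78 for Ltbp4 and -0.53 for Bmpr1a. The groups did not overlap for any of these genes, so replicate 1 had to lie on this side. Its side is therefore no test of the row. With the row as a block, Fstl3 alone passed in limma (1.49, adjusted p = 0.0439), and the other 10 genes had adjusted p values from 0.0848 for Smad6 to 0.369 for Smad3. The other row held only tail-suspension replicates 2 and 3. Each blocked difference therefore compares tail-suspension replicate 1 alone with the sham arrays, and repeats the values given for that replicate. For tail-suspension replicates 2 and 3, row and treatment cannot be told apart.

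**Figure D3:**
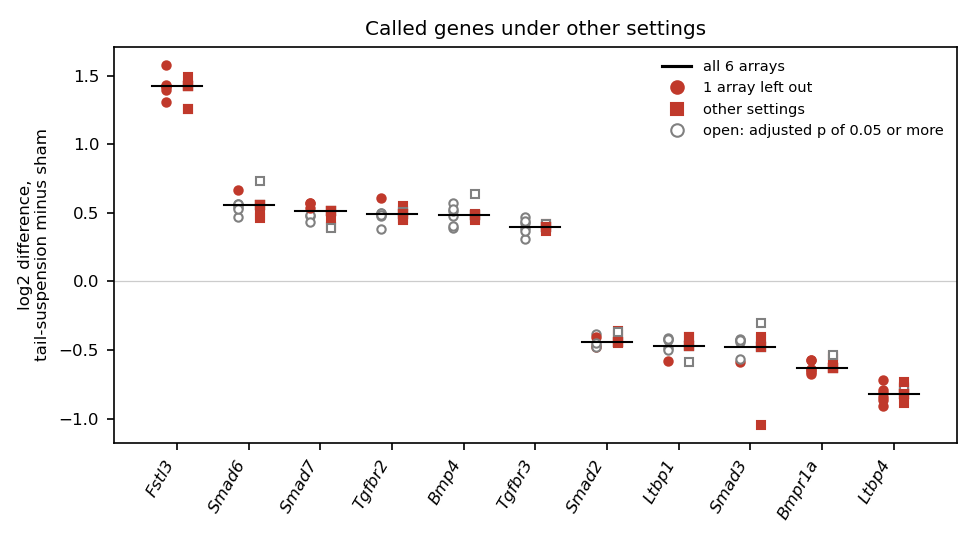
Log2 difference, tail-suspension minus sham, of the 11 genes past the threshold with all 6 arrays (black line), with each array left out in turn (circles) and under the other ways of processing (squares). Filled red symbols have an adjusted p under 0.05 and open symbols do not. All symbols of a gene lie on the same side of 0, every symbol of Fstl3 is filled, and Ltbp4 and Bmpr1a have 1 open symbol each.

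A further 118 genes of the pathway were read in the same way, and 13 (with Lox, a bound only) rose and 15 fell among the 93 that were tested, or 30.1% against the 20.3% of all genes. Outside the cell, Furin, a protease that cuts the TGF-beta precursor, rose by 0.49, while Itgb6, an integrin subunit that releases active TGF-beta, had a difference of -3.34 and the protease Htra1 one of -0.83. The level of Itgb6 fell from 3.10, 2.84 and 2.72 in sham hearts to 0.361, 0.406 and 0.158 in tail-suspended hearts, groups far apart (SE 0.34, adjusted p = 0.00326, limma). In total 1 of the 18 tested extracellular regulators rose and 4 fell, or 5.56% and 22.2%, against 10.5% and 9.8% of all genes. On lists as short as these a few genes set the share. Of 10 tested ligands beyond the list above, 3 (30%) fell and none rose, among them Gdf1 at -0.58 and Lefty1 at -0.54. Of 7 receptors and co-receptors, Amhr2, the receptor of anti-Müllerian hormone, rose by 1.47, and the BMP co-receptors Hfe2 and Rgma had differences of -1.097 and -0.52. These are 14.3% higher and 28.6% lower of that list. Of 23 regulators inside the cell, 3 fell and none rose, among them Pmepa1, which holds back Smad2 and Smad3, at -0.71 and the Smad anchor Zfyve16 at -0.56. The 13.0% of this list that fell was near the 9.8% of all genes, and below the 20.3% of all genes that passed in either direction. With each array left out in turn, Itgb6, Amhr2, Hfe2 and Pmepa1 kept their calls. The size of the Amhr2 difference depended on the processing and ranged from 0.753 to 1.81 over all alternatives. Htra1 lost its call without sham replicate 2 (adjusted p = 0.0506), Zfyve16 without sham replicate 1 or 2 (up to 0.0605), Rgma without either of these or tail-suspension replicate 3 (up to 0.0685), Lefty1 without any sham array or tail-suspension replicate 3 (up to 0.0825), Gdf1 without any array other than tail-suspension replicate 1 (up to 0.104) and Furin without any other than tail-suspension replicate 2 (up to 0.110).

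Among 24 tested target genes of TGF-beta, 6 rose and 2 fell, with a median difference of 0.11. These are 25.0% and 8.33% of the list, against 10.5% and 9.8% of all genes, and the share that fell was close to that of all genes. Ctgf, a matricellular protein and a direct Smad3 target, had levels of 14.6, 13.5 and 14.2 in sham hearts and 87.1, 71.3 and 91.8 in tail-suspended hearts. Every tail-suspended heart lay far above every sham heart, and the difference was 2.56 (SE 0.12, adjusted p = 0.000651, limma), or 5.88-fold. Lox, which cross-links collagen and elastin, was detected in none of the sham hearts and in all 3 tail-suspended hearts, at least 4.99-fold higher in the main processing. That bound depends on the processing, since the log2 difference of Lox ranged from 0.795 to 3.01 over the alternatives. Lox entered the test through the tail-suspended group alone, so it is given as a bound with no test, and without it 5 of the targets rose. Col3a1, a fibrillar collagen, went the other way with levels of 11.7, 15.01 and 23.3 in sham hearts and 3.88, 3.09 and 6.88 in tail-suspended hearts, a difference of -1.88 (SE 0.36, adjusted p = 0.0177, limma), and Snai2, a transcription factor of mesenchymal cells, had a difference of -0.59. Ctgf and Snai2 kept their calls with each array left out, and Col3a1 lost its call without sham replicate 2 or tail-suspension replicate 1 (adjusted p of 0.0607 and 0.0532). Each of the other targets that rose, Lox aside, lost its call in 3 to 5 of the 6 leave-outs. Each also lost it with another background correction (normexp). Fibroblast markers other than Col3a1 did not pass, 7 of 8, and the summed fibroblast marker level was 360 to 388 in sham and 389 to 478 in tail-suspended hearts. The sum weighs the brightest markers most. The 8 markers had a median difference of -0.11, with 3 above 0 and 5 below, so most went the other way from the sum. The part of fibroblasts in these differences was not tested.

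Among 11 tested target genes of BMP signalling, 5 rose and 1 fell, with a median difference of 0.32. These are 45.5% and 9.09% of a short list, against 10.5% and 9.8% of all genes. Atoh8, a transcription factor of endothelial cells, rose by 1.103, Tmem100, a membrane protein of endothelial cells, rose by 0.97, and Dlx3 had a difference of -0.55. Id1, Id3 and Hey1, direct Smad targets that encode inhibitory helix-loop-helix factors and a Notch and BMP effector, are named here after their values were seen. Id1 had levels of 8.54, 8.04 and 10.9 in sham hearts and 14.0, 13.2 and 14.2 in tail-suspended hearts, with no overlap. It rose by 0.61 (SE 0.13, adjusted p = 0.0247, limma), Id3 by 0.45 (adjusted p = 0.0437) and Hey1 by 0.56 (adjusted p = 0.0148). With each array left out in turn, Atoh8, Tmem100 and Dlx3 kept their calls, Hey1 lost its call without sham replicate 2 or tail-suspension replicate 3 (adjusted p up to 0.0622), Id1 without any array other than sham replicate 3 or tail-suspension replicate 2 (up to 0.0848) and Id3 without any array other than sham replicate 3 (up to 0.113). These rises stood beside the lower endothelial markers given above, of which Kdr, the main VEGF receptor, had levels of 18.9, 19.1 and 19.0 in sham hearts and 13.9, 11.5 and 13.7 in tail-suspended hearts.

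**Figure D4:**
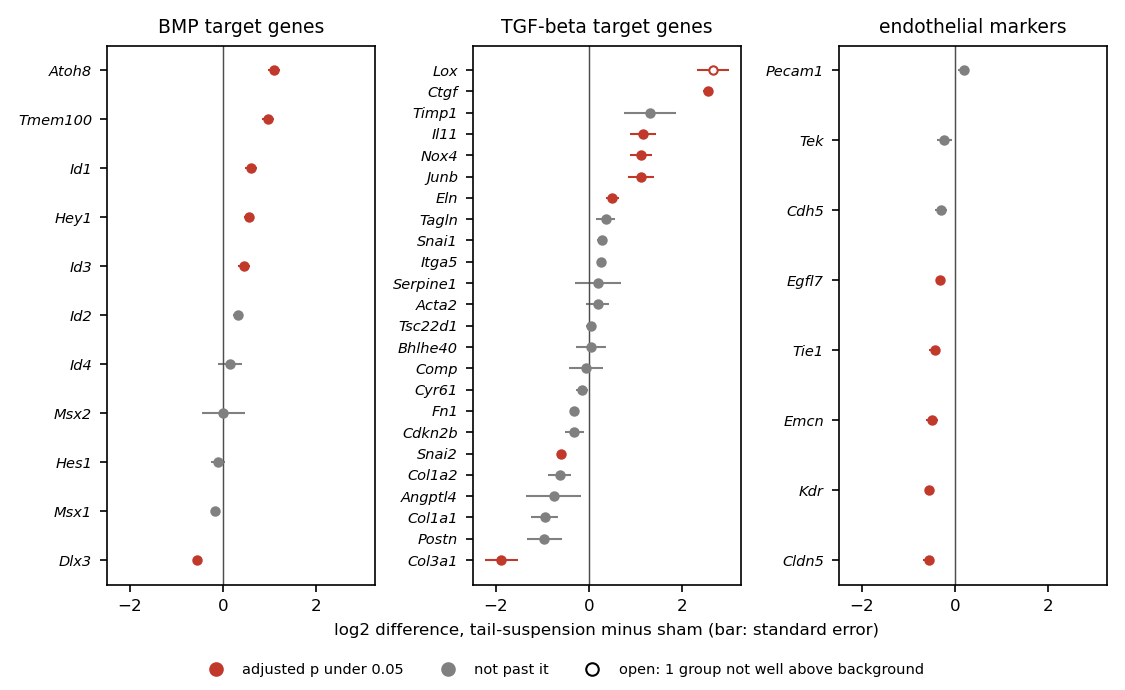
Log2 difference, tail-suspension minus sham, of the tested target genes of BMP and TGF-beta signalling and of the 8 endothelial markers, with points at the limma estimate and bars of 1 standard error. Red points passed an adjusted p of 0.05, and Lox is open because it was detected on none of the sham arrays. The BMP targets Atoh8 to Id3 lie above 0, and 7 of the 8 endothelial markers lie below it.

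On mm9, the build of the files, the probe of Fstl3 lay at chr10:79244916-79244975, that of Smad6 at chr9:63800980-63801039, that of Ltbp4 at chr7:28090175-28090234 and that of Bmpr1a at chr14:35224339-35224398. The gene lies on the plus strand for Fstl3 and on the minus strand for the others, and the part of the transcript that each probe reads was not analysed here.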

How the data were processed

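Total RNA of 3 sham and 3 tail-suspended hearts was labelled with Cy3 and hybridised to 6 Agilent arrays. The authors deposited scanner output of Agilent Feature Extraction 10.7.1.1, from which the background-corrected intensity per spot was used, and a table with 1 column of log2 values per array, whose columns correlated above 0.999 with the log2 intensity of their array and had medians of 4.33, so that it is on a log2 scale and close to quantile normalized. Its method was not given in the sources used here, and it served as an alternative.

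In R 4.3.3, each array's 75th percentile was subtracted from its log2 intensities. Control spots and the 146 to 212 outlier spots per array were dropped, and the remaining spots of a probe were averaged. A probe was detected on an array if 50% or more of its spots carried the flag for signal well above background. Testing needed detection on all arrays of either group and used limma 3.58.1 (lmFit, then eBayes, without covariates), and p-values were adjusted by Benjamini-Hochberg over the 28032 probes. Where 1 group was not detected, the fold is a bound against, on each array, the higher of its lowest signal well above background and the signal of the probe itself. Groups came from the labels. The p-values set a difference against the spread within groups of 3 mice, which limma draws toward the spread pooled across probes. In the tail-suspended group this spread also includes the 2 slide rows. The number of arrays limits the precision.

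The genes, their roles, the lists of other pathway genes and of markers, and the tests were chosen with earlier results of these data known. Named were all 42 genes, other probes of a gene that differed, and up to 2 genes per further list and direction with the largest change past the threshold. Of 11 marker lists, neither smooth muscle nor atrial, erythroid, adipocyte or mesothelial markers had a gene past the threshold. Macrophages had 1 higher (Cd163, detected in no sham heart and so known only as a bound). Ventricular cardiomyocytes had 1 lower (Irx4), which lost its call without any array other than tail-suspension replicate 1 (adjusted p up to 0.147, limma). The other lists are given above. The summed atrial marker level was 101 to 204 in sham hearts and 546, 179 and 638 in tail-suspended hearts. Of the 4 atrial markers tested, 2 differences lay above 0 and 2 below, and the part of atrial tissue was not tested. Alternatives were normexp (offset 50), quantile normalization, the authors' log2 values, 2 other filters, the methods' t-test, the replicate number or the slide row as a block, the mean of all tested probes of a gene, outlier spots kept and each array left out. The steps were tested on simulated data.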

Additional observations from a re-analysis of the deposited data

How the results depend on the processing

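Against 6 higher and 5 lower among the 42 genes and 13 higher and 15 lower among the other pathway genes, calls fell to 1 and 2, and 5 and 6, with no filter on dim probes, and to 1 and 0, and 2 and 0, with the slide row as a block. The methods' t-test passed 1 and 4, and 6 and 9, when adjusted by Benjamini-Hochberg, whereas at their threshold without adjustment 7 and 9 of the 38 genes differed, as did 34.6% of all genes. Leaving out 1 array gave 1 to 5 higher and 2 to 4 lower among the 42 genes, and 5 to 16 and 5 to 11 among the others. Over all probes, where 3023 rose and 2683 fell, the counts were 320 and 177 with the row as a block, 1041 and 790 with no filter, 1532 and 1248 by the methods' t-test and, at the lowest, 1008 and 749 without sham replicate 2. The cause was not tested. Counts under the other 6 alternatives were within 1.5 times for the 42 genes.

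Replicate numbers are shared by both groups, but deviations of same-numbered arrays correlated at -0.0200, -0.0176 and 0.0495, so no pairing was assumed. With the replicate number as a block, 3 rose and 2 fell among the 42 genes, 10 and 11 among the others, and 1714 and 1403 of all probes.

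No gene past the threshold changed sign. Of 608 single-gene values over the 38 genes, 506 kept direction and side of the threshold, 71 lost and 12 gained a call, and 19 changed sign. Of 606 values over the listed pathway and marker genes past the threshold, 395 kept their call, 211 lost it and none changed sign. These were Smad1 (-0.00959 with normexp, -0.21 as the mean of its probes), Smad4 (0.0371 with normexp, 0.0139 with quantile normalization, 0.0140 in the authors' values), and with the slide row as a block Bmp7 (0.18), Inhbb (-0.0452) and Nog (0.25). Leaving out each array in turn, the difference ranged across 0 for Tgfb1 (-0.0127 to 0.131), Tgfb2 (-0.0049 to 0.203), Bmp7 (-0.26 to 0.0902), Tgfbr1 (-0.0526 to 0.154), Eng (-0.00956 to 0.328), Smad4 (-0.0423 to 0.0244), Fst (-0.123 to 0.0423) and Nog (-0.205 to 0.0590). Smad3 missed the threshold with normexp (-0.42, adjusted p = 0.0588, limma).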
